A study of Mus musculus with 48 samples.

Results

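The 4 MaNonAD libraries were compared with the 10 MaCon libraries, 14 of the 48 libraries of the series, to ask how the male thoracic aorta differs under BAPN where no lesion was seen. Members were taken by the names of the groups. BAPN (β-aminopropionitrile) inhibits lysyl oxidases, the enzymes that cross-link collagen and elastin, and a vessel wall formed without these cross-links is known to dilate, dissect or rupture. The media of the aorta is built of smooth muscle cells between elastic lamellae, under an endothelium on the lumen side and an adventitia of fibroblasts, immune cells and small vessels on the outside.

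All mice were wild-type C57BL/6J. MaNonAD mice drank water with 0.4% BAPN freely for 28 days, starting at the age of 3 weeks, and MaCon mice had plain water over the same time. MaNonAD are the BAPN-treated males that lived to the end and were then sorted by outcome, so mice that died earlier are not in this group and the 4 animals are a selected part of those treated. The submitters' design text describes that sorting as macroscopic and the methods as microscopic, and the criterion used for each mouse cannot be told from these sources. FeNonAD and FeCon are the same 2 conditions in female mice, with 8 and 10 libraries, and MaAAD are 7 treated males with dissection or aneurysm. Each library is 1 mouse, and the piece taken was the ascending aorta, arch and proximal descending aorta after perfusion with saline.

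Values are CPM, the rounded expected counts scaled to library size with TMM factors, and levels of different genes are not compared since they are not corrected for length. Library totals of the 14 libraries ranged from 14193298 to 16314525 counts, and correlations between them from 0.962 to 0.992. The tissue label was borne out by its markers, with Acta2 between 9772 and 35600 CPM and Myh11 between 3514 and 7257 CPM in every library, and with endothelial Cdh5 and adventitial Dcn present throughout. Genes of fat were detected in every library and those of thymus to very different levels. The brown fat gene Ucp1 ranged from 86.5 to 1173 CPM and the thymocyte gene Rag1 from 0.0668 to 38.6 CPM, with the highest value of the former in MaNonAD2 and of the latter in a MaCon library. In bulk tissue, fewer cells of a type and less RNA per cell cannot be told apart. In the comparison of the groups, 2 libraries stood apart. MaNonAD1 was the highest MaNonAD library for 38 of the 55 genes called higher, and MaCon5 was the control whose Arntl and Dbp, genes of the circadian clock, lay at the level of the treated libraries.

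edgeR's quasi-likelihood test called 69 of 14431 tested genes, 0.478% of them, differentially expressed between MaNonAD and MaCon. To count as a DEG, a gene needed a Benjamini-Hochberg adjusted p below 0.05 together with a 2-fold or larger change in either direction. Of these, 55 (0.381% of tested genes) were higher in MaNonAD and 14 (0.097%) were lower. By the adjusted p alone, 64 (0.443%) were higher and 26 (0.18%) were lower. The median log2 fold change over all tested genes was -0.02. For 26 of the 55 higher DEGs the lowest MaNonAD library lay above the highest MaCon library, which holds for 0.617% of all tested genes, and for 5 of the 14 lower DEGs the reverse was true (0.638% of all tested genes). Without MaNonAD1 there were 15 DEGs, all among the 55, and none was lower. That fit rests on 3 treated mice. Among the 15 DEGs were Spp1, Esm1, Pkp1, Rhbdl2, Acan, Bhlhe40, Cd79a, Cd22, Ms4a1, Fcmr, Ttc9, Pdgfb, Olfm2 and Sema3e. Leaving out another MaNonAD library gave 78 (without MaNonAD2), 36 (without MaNonAD3) and 79 DEGs (without MaNonAD4), and leaving out 1 MaCon library gave 45 to 86, the lowest without MaCon8.

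Spp1 and Esm1 had the largest rises among DEGs that averaged at least 10 counts a library. Spp1, which encodes the matricellular protein osteopontin, was at 189.6, 4.58, 70.0 and 12.2 CPM in MaNonAD1 to MaNonAD4, against 0.869 to 2.12 CPM in MaCon with a median of 1.46. All 4 treated libraries lay above all controls, and the treated libraries themselves spanned more than the distance between MaNonAD2 and the controls. Spp1 rose by 5.51 log2 units (SE 0.88, adjusted p = 0.000218 by edgeR's quasi-likelihood test), and by 4.25 without MaNonAD1 (adjusted p = 0.0242). Esm1, a proteoglycan secreted by endothelial cells and named endocan, was at 52.6, 7.83, 8.02 and 6.28 CPM against 0.351 to 1.96 CPM (median 1.07). Here 3 treated libraries were alike and MaNonAD1 stood above them, with no overlap between groups. The fold change on the log2 scale was 4.08 (SE 0.49, adjusted p = 1.13e-06), and 2.74 without MaNonAD1.

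Cthrc1, a secreted collagen-repeat protein, was at 36.8, 2.16, 11.2 and 2.14 CPM against 0.668 to 1.95 CPM (median 1.72). Col8a1, a chain of the short-chain collagen VIII, was at 221.7, 17.32, 48.3 and 18.5 CPM against 5.11 to 21.9 CPM (median 11.3). In both genes MaNonAD1 and MaNonAD3 were far above the controls, while MaNonAD2 and MaNonAD4 were next to the highest control or among them. Their log2 fold changes were 3.08 (SE 0.67, adjusted p = 0.0133) and 2.77 (SE 0.63, adjusted p = 0.0202), and without MaNonAD1 these were 1.73 (adjusted p = 0.707) and 1.32 (adjusted p = 0.77). Fn1, which encodes fibronectin, was at 5912, 2830, 3590 and 3843 CPM against 1404 to 3086 CPM, so that only MaNonAD2 fell within the controls. It rose by 1.07 log2 units (SE 0.20, adjusted p = 0.00162), and its value without MaNonAD1 was 0.83 (adjusted p = 0.134).

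Acan, the large proteoglycan aggrecan, was above every control in all 4 treated mice. It was at 202.5, 159, 134.9 and 122.6 CPM against 39.0 to 90.6 CPM (median 64.8), and its log2 change was 1.22 (SE 0.21, adjusted p = 0.000988). MaNonAD1 was the highest, and without it the log2 change of Acan was 1.06 (adjusted p = 0.0377).

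**Figure D1:**
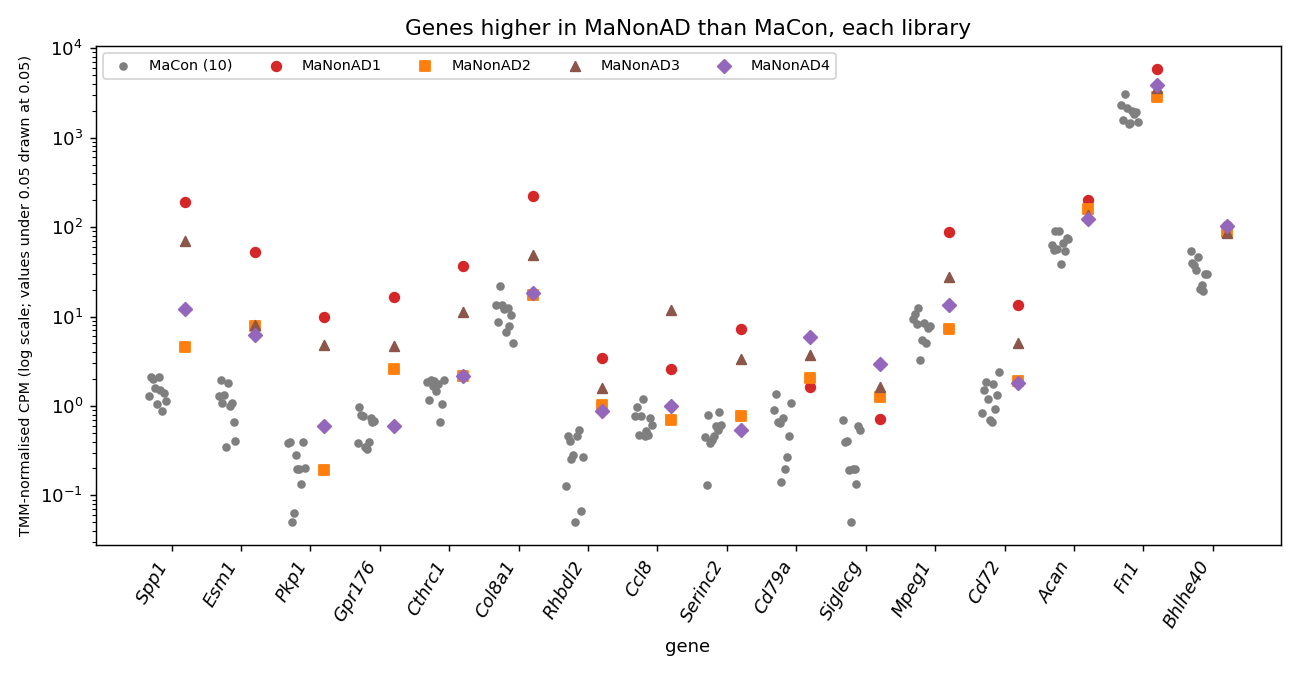
TMM-normalised CPM (log axis) of 13 of the 15 largest rises and of Acan, Fn1 and Bhlhe40 in each library; grey points are the 10 MaCon libraries and coloured symbols the 4 MaNonAD libraries. MaNonAD1 was the highest symbol for Spp1, Esm1, Col8a1 and most other genes, while Cd79a and Siglecg were highest in MaNonAD4.

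Among 21 tested matricellular genes, Spp1, Cthrc1 and Fn1 were the 3 DEGs, 9 members were higher at an unadjusted p under 0.05 and the median log2 fold change was 0.44. Over all tested genes, 6.24% were higher and 5.78% lower at that unadjusted p. Of 25 cartilage and bone genes tested, Acan was the DEG and 8 were higher at the unadjusted p (median 0.38). Col2a1, the cartilage collagen, was at 28.2, 3.56, 5.26 and 2.40 CPM against 0.196 to 2.04 CPM, without overlap, and had an adjusted p of 0.0632. Of 24 proteoglycan and hyaluronan genes, Esm1 and Acan were the DEGs and the median was 0.07. The 40 collagen chains had a median of 0.10 with Col8a1 as the DEG, and the 27 collagen processing enzymes a median of 0.10 with none, where P4ha3 and Sparc had the lowest p (adjusted p = 0.142 and 0.2).

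The genes of the lysyl oxidase family, the targets of BAPN, held no DEG, but Lox was one when clock genes were taken into the fit. Lox itself was at 596.4, 179.3, 486.2 and 566.4 CPM against 150.6 to 505.3 CPM in MaCon (median 408), so that MaNonAD2 lay near the lowest control and 2 treated libraries above the highest. Its log2 change was 0.20 (SE 0.32, adjusted p = 0.865). In a fit with 2 clock terms, chosen after seeing the data and described with the clock genes, it was 1.10 (adjusted p = 0.00223), where 1.62% of all tested genes were DEGs on the higher side and 0.0485% on the lower, and the median of the family went from 0.20 to 0.65. Loxl4 was at 23.5, 15.4, 13.9 and 19.1 CPM against 7.90 to 14.1 CPM, and its log2 change was 0.75 (SE 0.22, adjusted p = 0.101). Loxl2, whose reads are shared with another gene, had 0.43 (adjusted p = 0.346), Loxl3 0.19 (adjusted p = 0.69) and Loxl1 0.13 (adjusted p = 0.785). All 5 values were positive, against 46.6% of all tested genes.

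Eln, which encodes elastin, was at 23600, 11950, 28740 and 24560 CPM against 6935 to 16000 CPM. MaNonAD2 was in the middle of the controls and the other 3 treated libraries were above every control, and the log2 fold change of 0.89 (SE 0.28) had an adjusted p of 0.14. With the clock terms it was 1.39 (adjusted p = 0.00157). The 20 elastic fibre and microfibril genes had a median of 0.11 and the 23 metalloproteinases and inhibitors of 0.02, with no DEG in either. Within the latter, Timp1, an inhibitor of metalloproteinases, was at 100.8, 37.0, 107.5 and 43.2 CPM against 16.2 to 34.6 CPM, without overlap but with an adjusted p of 0.243, and with the clock terms its log2 fold change of 1.56 became 2.07 (adjusted p = 0.0249). Mmp3 (stromelysin) had a log2 fold change of 0.99 (adjusted p = 0.143). Of 21 TGF-β pathway genes tested, 3 were higher and 3 lower at the unadjusted p, and the lowest p belonged to Bambi and Tgfb3 (adjusted p = 0.119 and 0.145).

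Contractile smooth muscle genes lay on the lower side without passing as DEGs. Of 26 genes tested, 24 had a negative fold change, 9 were lower at the unadjusted p, and the median log2 fold change was -0.41. Tes, which encodes a focal adhesion protein, was at 39.2, 44.5, 55.2 and 67.4 CPM against 70.2 to 112.3 CPM, and fell by 0.83 (SE 0.21, adjusted p = 0.047), under the fold set for a DEG. Its value was -0.72 without MaNonAD1 (adjusted p = 0.476) and -0.46 with the clock terms (adjusted p = 0.175), and its adjusted p with an erythroid term, described further on, was 0.131. Des, the intermediate filament desmin, was at 34.4, 143.1, 84.3 and 84.8 CPM against 90.6 to 263.4 CPM, and its value was -0.90 (adjusted p = 0.139), or -1.12 with the clock terms (adjusted p = 0.0328), where it was a DEG. Myh11, the smooth muscle myosin heavy chain, was at 3514, 4472, 3528 and 5155 CPM against 4996 to 7257 CPM. Only MaNonAD4 was within the controls, and the log2 change was -0.50 (SE 0.25, adjusted p = 0.43), or -0.71 with the clock terms (adjusted p = 0.0279). Myocd, the coactivator of these genes, was at 104.4, 160.0, 134.1 and 161.6 CPM against 174.8 to 389.1 CPM, apart from the controls, with -0.88 (SE 0.26, adjusted p = 0.106). Of the 19 smooth muscle transcription regulators tested, Myocd among them, 2 were higher and 2 lower at the unadjusted p. The 24 calcium and potassium channels had a median of -0.20 and the 27 vasoactive receptors of -0.004.

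Pkp1, Gpr176, Serinc2 and Rhbdl2, genes of unlike function, were, like Spp1, highest in MaNonAD1 and next highest in MaNonAD3. Pkp1, a plaque protein of desmosomes, was at 10.0, 0.191, 4.86 and 0.601 CPM against 0 to 0.400 CPM, and rose by 4.08 (SE 0.62, adjusted p = 0.000122). Gpr176, an orphan G protein-coupled receptor, was at 16.5, 2.61, 4.73 and 0.601 CPM against 0.332 to 0.982 CPM. MaNonAD2 was within the controls for Pkp1 and MaNonAD4 for Gpr176. Serinc2, of the serine incorporator family, rose by 2.50 (adjusted p = 0.00391), with MaNonAD2 and MaNonAD4 within the controls. Rhbdl2, a protease within the membrane, was at 3.47, 1.02, 1.58 and 0.868 CPM against 0 to 0.535 CPM. Its groups did not overlap, and it rose by 2.58 (SE 0.34, adjusted p = 5.1e-06). Without MaNonAD1 the log2 change was 3.02 for Pkp1 (adjusted p = 0.0377), 2.11 for Gpr176 (adjusted p = 0.288), 1.55 for Serinc2 (adjusted p = 0.552) and 1.99 for Rhbdl2 (adjusted p = 0.00436).

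Endothelial genes had mostly positive values with few DEGs, and the lists were not tested against each other. Of 18 endothelial identity genes, 17 had a positive fold change with a median of 0.20, 3 higher at the unadjusted p and no DEG, where Sox17 (adjusted p = 0.28) and Tie1 (adjusted p = 0.31) had the lowest p. Of 18 genes of endothelial activation and sprouting, 17 were positive with a median of 0.54, 8 were higher at the unadjusted p, and Esm1 and Vcam1 were DEGs. Vcam1, the adhesion molecule that leukocytes bind, was at 181.3, 54.6, 102.7 and 97.4 CPM against 36.8 to 75.6 CPM. MaNonAD2 was at the level of the median control of 54.0 CPM, and the log2 change was 1.01 (SE 0.25, adjusted p = 0.046), or 0.65 without MaNonAD1 (adjusted p = 0.699). With the clock terms it was 1.02 (adjusted p = 0.0531), and Esm1 was then the only DEG of the list.

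Pdgfb, the B chain of platelet-derived growth factor, was chosen after its values were seen, and was at 45.3, 51.4, 69.1 and 49.2 CPM against 18.9 to 32.0 CPM. Its 4 treated libraries were alike and apart from the controls, and it rose by 1.06 (SE 0.21, adjusted p = 0.00499), or by 0.81 with the clock terms (adjusted p = 0.0409), under the fold set for a DEG.

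Inflammatory genes had positive medians with few DEGs. Of 31 chemokines, 8 were higher at the unadjusted p, the median was 0.88, and Ccl8 and Cx3cl1 were DEGs. Ccl8, a chemokine for monocytes, was at 2.58, 0.700, 11.8 and 1.00 CPM against 0.465 to 1.20 CPM, so that the rise of 2.52 (SE 0.64, adjusted p = 0.047) lay in MaNonAD3 and MaNonAD1. Cx3cl1, the membrane-bound chemokine fractalkine, was at 57.4, 19.9, 31.5 and 17.0 CPM against 11.6 to 18.7 CPM, with 1 treated library within the controls, and rose by 1.13 (SE 0.24, adjusted p = 0.0123). Among 23 cytokines and receptors, Tnfrsf1b, a receptor of tumour necrosis factor, rose by 1.10 (adjusted p = 0.0356). It was at 57.7, 20.6, 31.1 and 19.8 CPM against 10.1 to 20.1 CPM. Without MaNonAD1 the value of Cx3cl1 was 0.66 (adjusted p = 0.642), that of Tnfrsf1b 0.66 (adjusted p = 0.714) and that of Ccl8 2.68 (adjusted p = 0.148).

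Of 19 macrophage and monocyte markers, 18 had a positive fold change, 9 were higher at the unadjusted p and none was a DEG, with a median of 0.73. The summed level of this list was 1234, 876.9, 1193 and 868.8 CPM in MaNonAD1 to MaNonAD4, and 528.0 to 924.4 CPM in MaCon. MaNonAD1 and MaNonAD3, the libraries highest for Spp1, were thus above all controls, and the other treated libraries were within them. The defining markers Adgre1, Csf1r, Cd68 and C1qa were detected in all 14 libraries, with log2 fold changes of 0.88, 0.61, 1.04 and 0.73 and adjusted p of 0.242, 0.293, 0.221 and 0.299. With the clock terms Adgre1 had 1.299 (adjusted p = 0.0231) and the chemokine receptor Ccr2 2.21 (adjusted p = 0.0367), and these 2 markers were DEGs in that fit. The part of macrophage content in the rises of Spp1 and its companions was not tested. Mpeg1, a pore-forming protein of macrophages, was at 87.5, 7.26, 27.5 and 13.4 CPM against 3.23 to 12.3 CPM and rose by 2.12 (SE 0.47, adjusted p = 0.0179), with 1.04 (adjusted p = 0.765) without MaNonAD1. Trem2, a lipid-sensing macrophage receptor, had 1.88 (adjusted p = 0.0793), and 1.90 with the clock terms (adjusted p = 0.0127), within a list of 16 lipid-handling macrophage genes with a median of 0.70.

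The 15 dendritic cell and MHC class II genes had a median of 0.73, the 21 complement genes of 0.31 and the 12 lysosomal cathepsins of 0.13, with no DEG in these lists. All 24 interferon-stimulated genes tested had a positive value, with a median of 0.47 that became -0.07 without MaNonAD1. Their summed level was 619.2 CPM in MaNonAD1, 269.4 to 303.1 CPM in the other MaNonAD libraries and 239.7 to 350.8 CPM in MaCon, so that MaNonAD1 alone lay above the controls. Neutrophil markers (7 tested, median 0.17, none at the unadjusted p) and T and NK cell markers (10 tested, median -0.02) held no DEG. The summed level of the T and NK list was 29.5, 49.3, 19.2 and 32.3 CPM in MaNonAD1 to MaNonAD4. In MaCon it ranged from 2.94 to 225.8 CPM with a median of 15.45, below all treated libraries. S100a8 was at 0.838, 0.509, 0.789 and 1.07 CPM, within the MaCon range of 0.0668 to 3.41 CPM.

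Of 35 cell cycle genes, 31 had a positive fold change and 20 were higher at the unadjusted p, with a median of 0.93, and none was a DEG. With the clock terms 13 were DEGs, all higher, against 1.62% of all tested genes in that fit, and the median was 1.298. The summed level of the list was 635.8, 485.4, 627.9 and 605.3 CPM in MaNonAD1 to MaNonAD4 against 495.3 to 700.6 CPM in MaCon, so that the sum was not above the controls. The mean log2 level over the members was 3.22, 2.64, 3.29 and 3.11 against 2.22 to 3.12 in MaCon, with MaNonAD1 and MaNonAD3 above every control. Cdk1, the mitotic kinase, was at 6.11, 2.23, 8.41 and 4.41 CPM against 0.602 to 3.14 CPM (log2 fold change 1.72, SE 0.53, adjusted p = 0.132). MaNonAD2 was the treated library within the controls.

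**Figure D2:**
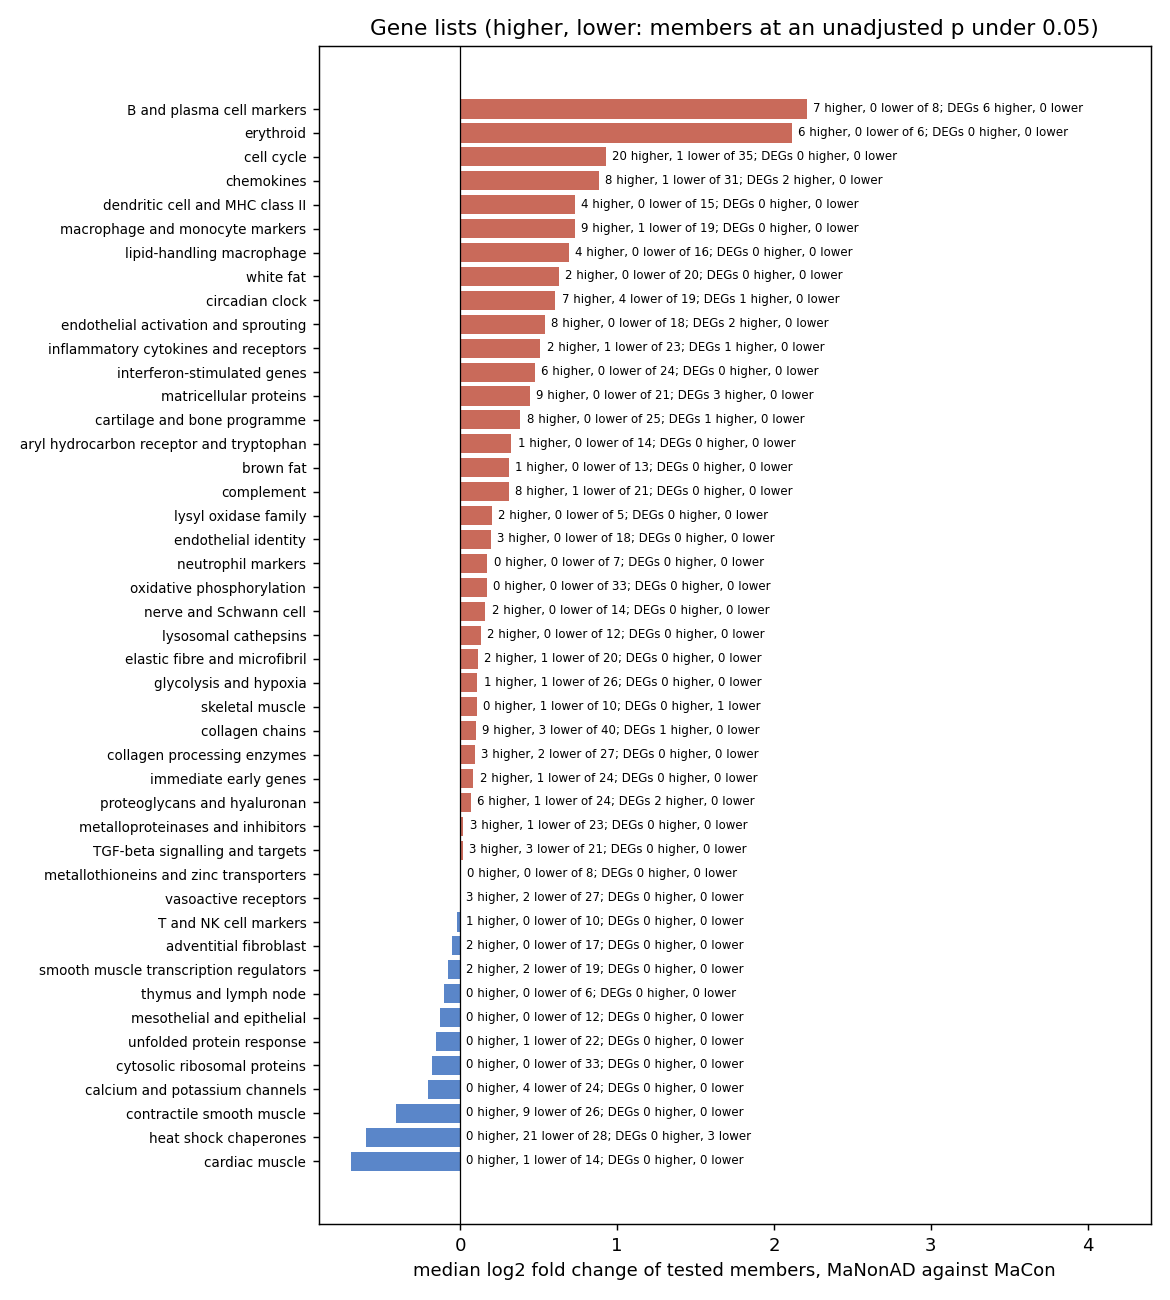
Median log2 fold change (x axis, bars) of the tested members of 45 gene lists between MaNonAD and MaCon, with the number of members at an unadjusted p under 0.05 and the number of DEGs written beside each bar. B cell and erythroid genes had the highest medians, and cardiac muscle and heat shock genes the lowest.

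B cell genes rose in another pattern over the libraries. Of 12 B and plasma cell markers, 8 were tested. All 8 had a positive fold change, with a median of 2.21, and 6 were DEGs, against 0.381% of all tested genes. The low-count filter keeps a gene that is high enough in as many libraries as the smallest group holds, and MaNonAD is that group. Genes near the floor could thus be tested because they were high in MaNonAD. The 6 of 8 is therefore not a fair measure of the list against all genes. Cd79a, a signalling chain of the B cell receptor, was at 1.62, 2.04, 3.68 and 5.88 CPM against 0.141 to 1.37 CPM (median 0.653). Its groups did not overlap, MaNonAD4 was the highest and MaNonAD1 the lowest treated library, and it rose by 2.34 (SE 0.53, adjusted p = 0.0205). Its partner Cd79b was at 2.28, 2.16, 1.71 and 3.47 CPM against 0.0668 to 1.31 CPM and rose by 1.98 (SE 0.47, adjusted p = 0.0268).

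Ms4a1 (CD20), Cd22 and Pax5, the transcription factor that holds B cell identity, averaged under 10 counts a library and were chosen after their values were seen. They were at 1.20, 0.891, 1.31 and 2.67 CPM, at 1.56, 0.955, 1.38 and 2.40 CPM, and at 1.02, 0.700, 0.592 and 2.60 CPM in MaNonAD1 to MaNonAD4. No MaCon library exceeded 0.654, 0.458 and 0.336 CPM for these genes, and their adjusted p were 0.00147, 0.00211 and 0.0498. Siglecg, an inhibitory receptor of B cells, rose by 2.26 (SE 0.54, adjusted p = 0.0306) in the same order of libraries as Cd79a. Cd72, another B cell coreceptor, did not follow this order. It was at 13.53, 1.91, 5.00 and 1.80 CPM against 0.664 to 2.42 CPM, with MaNonAD1 highest, and rose by 2.07 (SE 0.51, adjusted p = 0.0378). Without MaNonAD1 its value was 1.13 (adjusted p = 0.765), while Cd79a had 2.56 (adjusted p = 0.0377), Cd79b 2.01 (adjusted p = 0.146), Siglecg 2.51 (adjusted p = 0.0572) and Pax5 2.71 (adjusted p = 0.195).

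Erythroid genes were also on the higher side in MaNonAD. All 6 tested erythroid genes were higher at the unadjusted p, with a median of 2.11 and no DEG, and Alas2 had the lowest adjusted p (0.167). Their summed level was 1161, 1759, 687.5 and 5182 CPM in MaNonAD1 to MaNonAD4 against 208.0 to 1398 CPM in MaCon. The summed level of the B cell list was 12.3, 10.1, 13.2 and 25.2 CPM against 1.20 to 8.38 CPM. MaNonAD4 was highest for both, and for the erythroid sum MaNonAD1 and MaNonAD3 were within the controls. With the erythroid level as a term of the fit, chosen after seeing the data, the log2 fold change was 2.04 for Cd79a (adjusted p = 0.116), 1.81 for Cd79b (adjusted p = 0.112), 2.08 for Siglecg (adjusted p = 0.112), 2.26 for Pax5 (adjusted p = 0.213), 2.36 for Ms4a1 (adjusted p = 0.0228) and 2.70 for Cd22 (adjusted p = 0.0165). Without that term the same genes were at 2.34, 1.98, 2.26, 2.63, 2.75 and 2.98. Of the 55 higher DEGs 47 remained DEGs in that fit, and of the 14 lower DEGs 5 did, where 0.43% of all tested genes were higher DEGs and 0.0346% lower ones. The defining thymus marker Rag1 was at 2.50 to 8.47 CPM in MaNonAD, within the MaCon range but above the MaCon median of 1.77 CPM. The 6 tested thymus and lymph node genes had a median of -0.11. The summed level of that list was 45.3, 70.6, 40.8 and 41.3 CPM in MaNonAD1 to MaNonAD4 against 16.8 to 134.4 CPM in MaCon. The MaCon median of the sum was 27.3 CPM, below all treated libraries, and MaCon2 held the highest value.

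**Figure D3:**
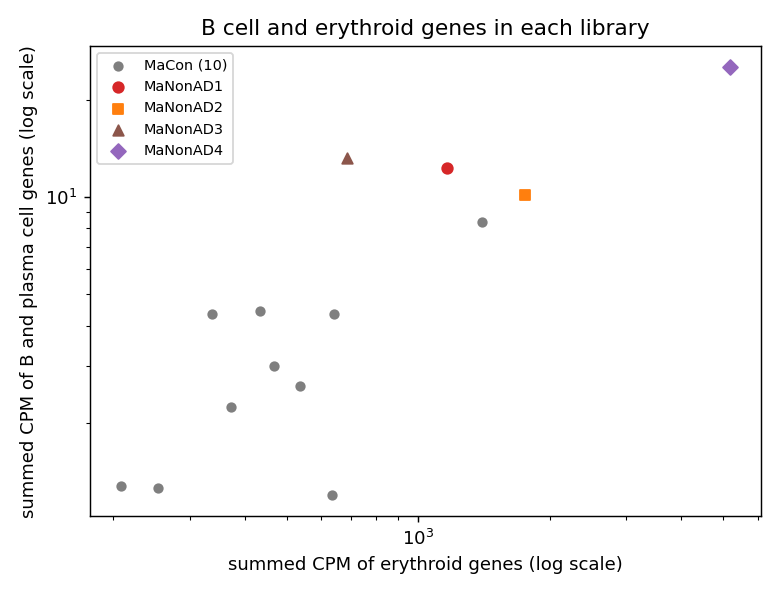
Summed CPM of the listed B and plasma cell genes (y, log axis) against that of the erythroid genes (x, log axis) in each library; grey points are MaCon and coloured symbols MaNonAD. All 4 MaNonAD libraries lay at 10.1 CPM or more on the y axis, above the highest MaCon library at 8.38, and MaNonAD4 was highest on both axes.

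The genes that fell were led by inducible heat shock proteins, chaperones that refold proteins and are known to be turned on through heat shock elements. Hspa1a and Hspa1b encode the same inducible Hsp70 protein from neighbouring genes. Their promoters are shown because heat shock elements are the known switch of these genes. The 250 bases before each start site (RefSeq, GRCm38.p6, read on the minus strand of chr17) match at 247 positions, and each holds 1 copy of GAANNTTC, given in capitals, which begins 104 bases before the start. The windows are chr17:34972157-34972406 and chr17:34959239-34959488.
Hspa1a: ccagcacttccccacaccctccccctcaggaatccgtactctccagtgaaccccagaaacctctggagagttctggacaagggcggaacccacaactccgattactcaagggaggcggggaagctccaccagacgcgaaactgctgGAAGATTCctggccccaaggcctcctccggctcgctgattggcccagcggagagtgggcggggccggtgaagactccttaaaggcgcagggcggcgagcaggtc
Hspa1b: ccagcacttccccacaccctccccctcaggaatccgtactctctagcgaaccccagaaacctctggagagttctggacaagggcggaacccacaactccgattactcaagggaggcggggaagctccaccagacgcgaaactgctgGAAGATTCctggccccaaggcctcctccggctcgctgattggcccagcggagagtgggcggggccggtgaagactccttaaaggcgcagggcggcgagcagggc
The motifs searched were GAANNTTC and TTCNNGAA, the core pairs of a heat shock element, each of which reads the same on both strands. One or the other was in the 250 bases of 10 of 30 promoters of heat shock list genes (33.3%) and of 4218 of 32851 promoters of all genes (12.8%), and the 2 overlap nowhere in the windows printed. A match is a run of letters and not a site shown to be bound.

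Hspa1a was at 53.8, 83.2, 66.9 and 98.1 CPM in MaNonAD1 to MaNonAD4 and at 83.2 to 1374 CPM in MaCon, with a median of 302. Hspa1b was at 59.0, 64.5, 62.0 and 98.3 CPM against 68.3 to 1548 CPM (median 340.5). The treated libraries of both genes sat together at the low end of a control range more than 10-fold wide, and overlapped its lower edge. Reads of the pair were shared out between them in the authors' counts, so their sum is more certain. It was 112.8, 147.7, 128.9 and 196.3 CPM against 151.5 to 2922 CPM (median 642.7). Hspa1b fell by 2.94 (SE 0.71, adjusted p = 0.0321) and Hspa1a by 2.72 (SE 0.63, adjusted p = 0.0225). Without MaNonAD1 their values were -2.86 (adjusted p = 0.283) and -2.59 (adjusted p = 0.234), and with the erythroid term -2.54 (adjusted p = 0.111) and -2.41 (adjusted p = 0.0801). The clock terms moved them most, to -1.28 (adjusted p = 0.22) and -1.41 (adjusted p = 0.144).

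Hsp90aa1, the inducible form of Hsp90, was at 196.4, 212, 333.4 and 427 CPM against 264.5 to 930.1 CPM, with 2 treated libraries below all controls, and fell by 1.08 (SE 0.28, adjusted p = 0.0498). With the erythroid term it was at -1.04 (adjusted p = 0.112), and with the clock terms at -0.42 (adjusted p = 0.257). Of 28 heat shock chaperone genes tested, 26 had a negative fold change and 21 were lower at the unadjusted p, against 5.78% of all tested genes, with a median of -0.60. The summed level of the list was 5671, 7962, 9128 and 8944 CPM against 9334 to 16960 CPM, so that the groups did not overlap, and MaNonAD1 was the lowest. The 22 genes of the unfolded protein response, the matching system of the endoplasmic reticulum, had a median of -0.15 with 1 member lower at the unadjusted p.

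The other falls were of mixed function. Gria1, a subunit of the AMPA glutamate receptor, was at 3.29, 3.44, 4.34 and 6.61 CPM against 7.68 to 18.9 CPM, without overlap, and fell by 1.49 (SE 0.36, adjusted p = 0.0312). Mybpc2, a myosin-binding protein known from fast skeletal muscle, was at 2.40, 3.76, 3.81 and 4.81 CPM against 6.08 to 11.4 CPM, also apart, and fell by 1.27 (SE 0.25, adjusted p = 0.00391). The 9 other skeletal muscle genes tested held none at the unadjusted p, and the list median was 0.11.

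Pkdcc, a secreted kinase needed in bone growth, was at 58.7, 119.2, 110.5 and 98.9 CPM against 141.6 to 320.6 CPM (median 216) and fell by 1.19 (SE 0.23, adjusted p = 0.00269), again without overlap. Rasl11a, a small GTPase of the Ras family, was at 6.89, 12.5, 18.8 and 15.2 CPM against 23.8 to 100.6 CPM and fell by 1.86 (SE 0.43, adjusted p = 0.0211). Muc4, a membrane mucin, fell by 1.61 (adjusted p = 0.046) and Cnr1, a cannabinoid receptor, by 1.57 (adjusted p = 0.0211), the former without overlap and the latter with it. Wdr95 and Gprasp1 fell by 1.21 (adjusted p = 0.046) and 1.26 (adjusted p = 0.0208). Gprasp1, a protein that sorts G protein-coupled receptors, shares reads with other genes in 46 of the 48 libraries and is less certain. Pfkp, a glycolytic phosphofructokinase, fell by 0.55 (SE 0.12, adjusted p = 0.0133), under the fold set for a DEG, within a list of 26 glycolysis and hypoxia genes whose median was 0.11. Without MaNonAD1 the value was -1.01 for Pkdcc (adjusted p = 0.0917), -1.64 for Rasl11a (adjusted p = 0.283), -1.41 for Muc4 (adjusted p = 0.43) and -1.28 for Cnr1 (adjusted p = 0.307). Pfkp had -0.43 there (adjusted p = 0.306). With the erythroid term Pkdcc had -1.05 (adjusted p = 0.017), Rasl11a -1.59 (adjusted p = 0.0898), Muc4 -1.69 (adjusted p = 0.0578), Cnr1 -1.29 (adjusted p = 0.122), Wdr95 -1.04 (adjusted p = 0.157) and Gprasp1 -1.14 (adjusted p = 0.0778).

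Of 19 clock genes tested, Nfil3 and Bhlhe40 separated the MaNonAD libraries from all controls, and 8 others, Arntl, Clock, Npas2, Per3, Dbp, Hlf, Ciart and Bhlhe41, from all controls but MaCon5. The circadian clock is a loop in which Arntl (Bmal1), Clock and Npas2 activate the Per and Cry repressors and the outputs Dbp, Tef, Hlf and Nr1d1, and its genes peak at different hours of the day. Arntl was at 2.16, 2.04, 8.74 and 11.4 CPM in MaNonAD1 to MaNonAD4 and at 1.62 to 63.1 CPM in MaCon, where MaCon5 was at 1.62 CPM and the median was 37.7. Dbp was at 354.2, 456.5, 233.2 and 231.1 CPM against 4.21 to 471.8 CPM (median 66.0), and here MaCon5 held the highest value of all. For both genes the 4 treated libraries lay beyond 9 of the 10 controls and beside or short of MaCon5.

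Other clock genes overlapped more controls. Nr1d1 was at 338.5 to 654.1 CPM against 48.9 to 562.8 CPM in MaCon and Per1 at 106.2 to 186.4 CPM against 81.6 to 238.5 CPM, and both overlapped several controls. MaCon5 was likewise far above the other controls for Per2, at 213.3 CPM against a MaCon median of 69.3, and for Per3 at 173 CPM against 29.6. Neither Arntl (log2 fold change -2.65, SE 0.92, adjusted p = 0.191) nor Npas2 (-2.25, adjusted p = 0.202), Clock (-0.88, adjusted p = 0.165), Dbp (1.79, adjusted p = 0.376), Per3 (1.52, adjusted p = 0.276), Per2 (0.73, adjusted p = 0.542) or Nr1d2 (0.99, adjusted p = 0.276) passed the test. Tef (1.11), Hlf (1.01), Ciart (1.61), Per1 (0.38), Cry2 (0.39) and Nr1d1 (0.61) were positive and Rora (-0.43) and Cry1 (-0.53) negative, with adjusted p of 0.302 or more. Nfil3, a repressor of the outputs, was at 5.39, 10.1, 10.8 and 8.08 CPM against 17.6 to 161.2 CPM, apart from all controls, with an adjusted p of 0.119.

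Bhlhe40, a repressor that acts on the clock and in immune and hypoxic responses, was the clock gene that rose. It was at 102.2, 87.9, 85.3 and 103.2 CPM against 19.5 to 54.5 CPM (median 31.6), with MaCon5 at 46.6 CPM. The 4 treated libraries were close to each other and all above the controls, MaCon5 included. Its log2 change was 1.51 (SE 0.23, adjusted p = 0.000142) and 1.47 without MaNonAD1. Its paralog Bhlhe41 had 1.40 (SE 0.43, adjusted p = 0.132) at 64.5, 57.4, 41.7 and 60.8 CPM, where MaCon5 was at 53.4 CPM and the median control at 20.5.

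**Figure D4:**
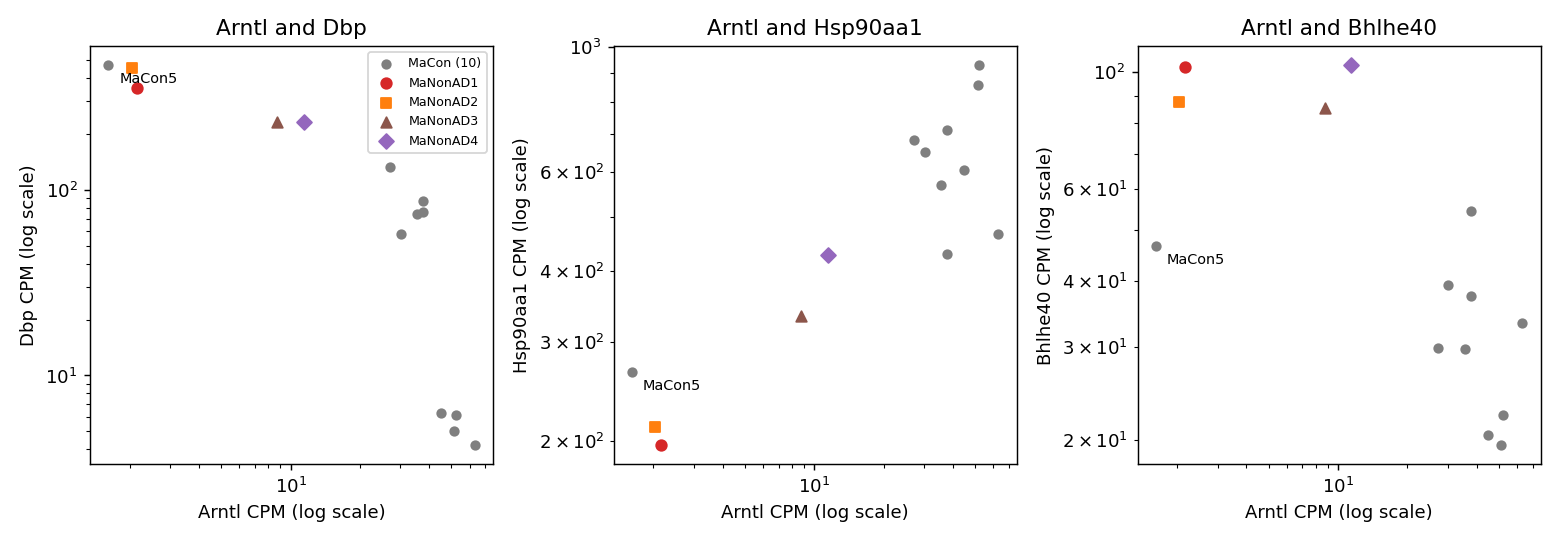
CPM of Dbp, Hsp90aa1 and Bhlhe40 (y, log axes) against CPM of Arntl (x, log axis) in the 10 MaCon and 4 MaNonAD libraries. For Dbp and Hsp90aa1 MaCon5, at 1.62 CPM of Arntl, lay among or beside the MaNonAD libraries, while for Bhlhe40 it stayed with the controls.

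The study's methods place the taking of faeces in a morning window on a single day, directly before the mice were killed and in randomised order, but the hour for each aorta is not given in the sources used here. The clock state moved with the group, and how much of each difference goes with it can be described only in part. In a fit chosen after seeing the data, with the first 2 principal components of 17 clock genes (59.8% and 15.9% of their variance) as terms, 50 of the 55 higher DEGs and 3 of the 14 lower DEGs remained. The heat shock genes were among those lost. Hspa1a had a log2 fold change of -1.41 there (adjusted p = 0.144), Hspa1b -1.28 (adjusted p = 0.22) and Hsp90aa1 -0.42 (adjusted p = 0.257), and the median of the heat shock list was -0.34. Pkdcc kept an adjusted p of 0.0175 with -0.85, while Rasl11a had -1.06 (adjusted p = 0.0548), Muc4 -1.297 (adjusted p = 0.0644) and Cnr1 -1.08 (adjusted p = 0.0847) and did not pass. Neither did Wdr95 at -0.71 (adjusted p = 0.162) or Gprasp1 at -0.68 (adjusted p = 0.0793). Gria1 and Mybpc2 remained DEGs. Bhlhe40 remained a DEG with 1.21 (adjusted p = 0.00465). That fit called 241 genes in all, 234 higher and 7 lower, with Lox, Eln and Timp1 among those gained. On the higher side it called 1.62% of all tested genes, against 0.381% without the clock terms, so counts in lists went up with the total. Its higher DEGs numbered 6 of 21 matricellular genes (3 without the clock terms), 4 of 40 collagen chains (1) and 4 of 25 cartilage and bone genes (1). They also numbered 4 of 31 chemokines (2). Among lists with 0 before, they numbered 2 of 19 macrophage markers, 2 of 16 lipid-handling macrophage genes and 2 of 15 dendritic cell and MHC class II genes. That fit called 1 gene each, where there had been none, of 27 collagen processing enzymes, 12 cathepsins, 10 T and NK cell markers, 24 immediate early genes and 14 aryl hydrocarbon receptor genes. Vcam1 and Pdgfb were no longer DEGs in it.

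MaNonAD was also set against MaCon5 alone, with no test. All 4 MaNonAD libraries were higher for 50 of the 55 higher DEGs and lower for 9 of the 14 lower ones. MaCon5 was among the controls used to call these DEGs, so much of this agreement follows from the selection. The share over all tested genes was not counted. These counts therefore do not show whether the differences hold at a like clock state. For Hsp90aa1, MaCon5 was at 264.5 CPM, the lowest control and between the treated libraries. For the sum of Hspa1a and Hspa1b it was at 259.6 CPM, above all 4 treated libraries. Without MaCon5 the full comparison gave 81 DEGs.

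Tissue beside the aorta was also looked at through its genes. White fat genes (20 tested) had a median of 0.63 with 2 at the unadjusted p, Fasn and Scd1, both of fatty acid synthesis, and both highest in MaNonAD1 at 4261 and 6019 CPM. Their adjusted p were 0.289 and 0.346. Brown fat genes (13 tested) had a median of 0.31, nerve and Schwann cell genes (14) of 0.16, cardiac muscle genes (14) of -0.69 with 1 at the unadjusted p, and mesothelial and epithelial genes (12) of -0.13. None of these lists held a DEG. Ucp1 was at 408.6, 1173, 651.9 and 608.1 CPM against 86.5 to 1131 CPM, and Adipoq at 155.3, 392.7, 269.4 and 145.0 CPM against 64.3 to 326.5 CPM. Of 17 adventitial fibroblast genes, 2 were higher at the unadjusted p, Lum and Thy1, and the median was -0.05. Their part in the differences was not tested. Cytosolic ribosomal proteins (33, median -0.18), oxidative phosphorylation (33, median 0.17), immediate early genes (24, median 0.08), metallothioneins and zinc transporters (8, median 0.00) and aryl hydrocarbon receptor and tryptophan genes (14, median 0.33) held no DEG either.

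The same treatment without lesion in females gave separate values, with their own controls. The 55 genes higher in MaNonAD had a median log2 fold change of 1.98 there and of 1.03 in FeNonAD against FeCon, and 54 of 55 had a positive female value, against 50.6% of all tested genes. Of the 55, 26 were also higher DEGs in females, where 1.67% of tested genes were DEGs on the higher side and 1.08% on the lower (2.75% in all, and 28.9% at an unadjusted p under 0.05). Spp1 was at 3.99, Esm1 at 2.96, Pkp1 at 3.53 and Cthrc1 at 2.83 on the log2 scale in females, all with an adjusted p under the threshold. The difference between the sexes in this response was tested as an interaction. It called 43 of 14431 genes (0.298%), 31 (0.215%) with a higher male than female fold change and 12 (0.0832%) with a lower one, and 12.1% of genes had an unadjusted p under 0.05. Of the 55 higher male DEGs 2 passed its adjusted p, Bhlhe40 and Ttc9, and of the 14 lower ones 3, Hspa1a, Hspa1b and Pkdcc. For Spp1 the difference was 1.52 (adjusted p = 0.68) and for Esm1 1.13 (adjusted p = 0.553).

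For Bhlhe40 the female fold change was -0.23 (adjusted p = 0.468) and the difference 1.74 (adjusted p = 0.00233). FeCon ranged from 37.4 to 96.05 CPM and FeNonAD from 23.0 to 96.4 CPM, so that female controls lay partly where MaNonAD lay, at 85.3 CPM or more. Hspa1b and Hspa1a differed by -3.64 (adjusted p = 0.03) and -3.09 (adjusted p = 0.0378), with female fold changes of 0.70 and 0.37, and the chaperone Dnajb4 by -1.76 (adjusted p = 0.0149). FeCon libraries had 109.6 to 197.7 CPM of Hspa1a, below the MaCon median of 302. Pkdcc differed by -1.16 (adjusted p = 0.0378). Oprl1, Pabpc1l and Olfr920 had the largest positive differences (4.203, 2.89 and 2.84), but averaged under 10 counts a library in the 14 male libraries, did not pass in males, and fell in females by 3.02, 1.99 and 1.89. Arntl ranged from 1.18 to 63.8 CPM in FeNonAD and from 2.03 to 41.9 CPM in FeCon, so clock state varied within both female groups, as it did within MaCon. The control groups were not alike, with a median of Dbp of 299.1 CPM in FeCon and 66.0 CPM in MaCon. Their medians of Arntl were 25.1 and 37.7 CPM. With the clock terms the interaction called 111 genes, and without MaCon5 it called 89. Without MaNonAD1 it called 12, of which 1 had a lower male than female fold change.

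**Figure D5:**
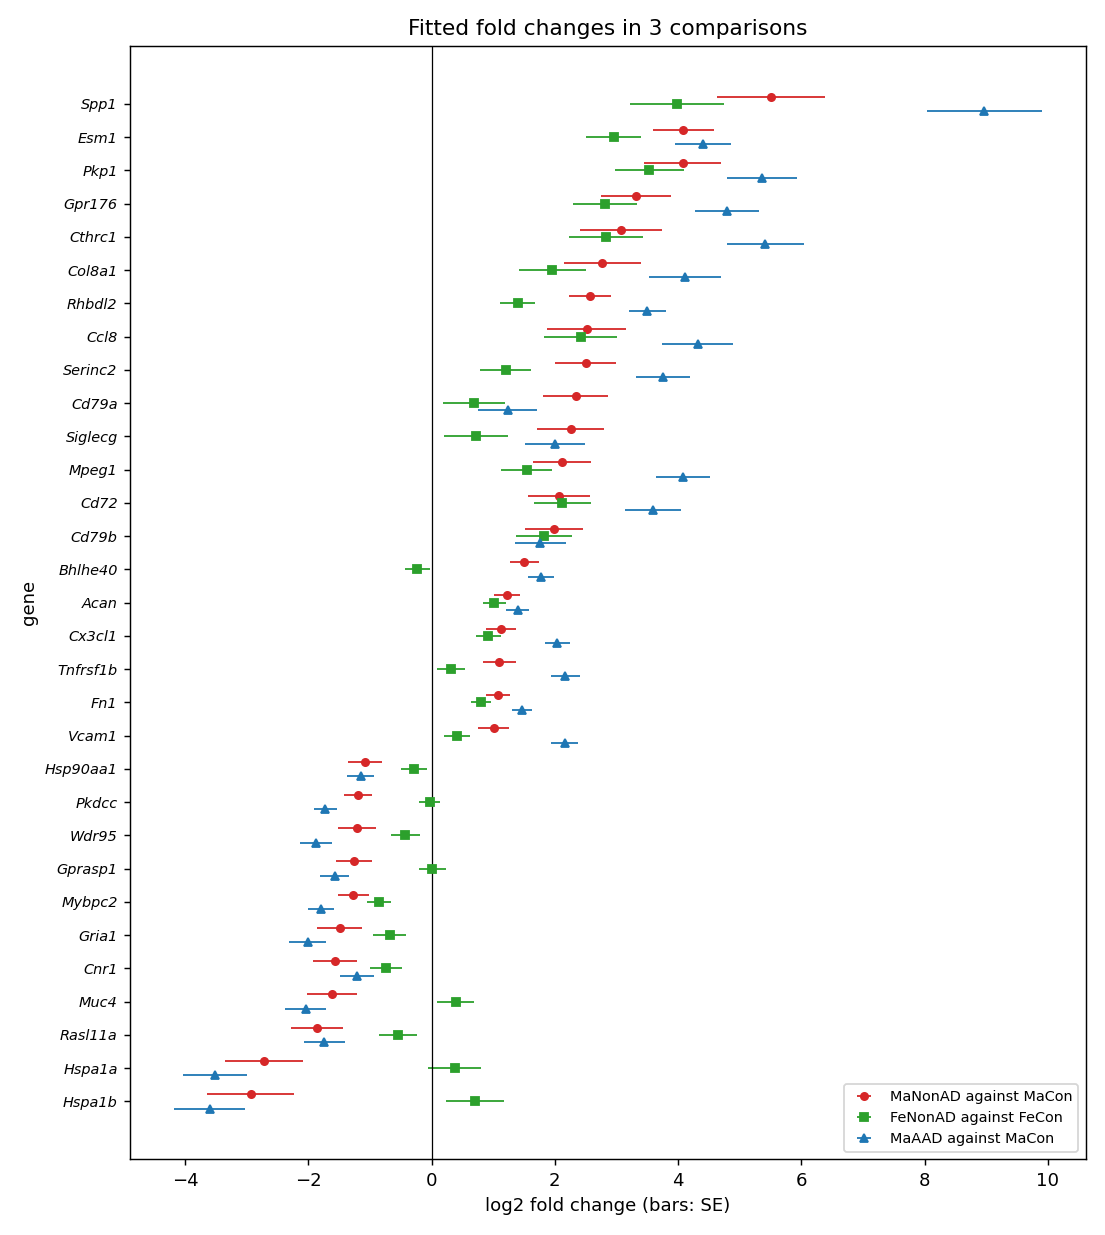
Fitted log2 fold change with its standard error for 31 named genes in MaNonAD against MaCon (circles), FeNonAD against FeCon (squares) and MaAAD against MaCon (triangles), where circles and triangles share the MaCon libraries. Spp1 was at 5.51, 3.99 and 8.97, while Bhlhe40 and the heat shock genes differed in direction or size between circles and squares.

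Treated males with a lesion were compared with those without. Against the shared MaCon libraries, Spp1 had a log2 fold change of 8.97 in MaAAD beside 5.51 in MaNonAD, Mpeg1 4.08 beside 2.12 and Ccl8 4.32 beside 2.52. Acan (1.40 beside 1.22), Esm1 (4.41 beside 4.08) and Bhlhe40 (1.78 beside 1.51) were closer together. Of B cell genes, Cd79a had 1.24 beside 2.34 and Ms4a1 0.71 beside 2.75, and neither passed the direct test of MaAAD against MaNonAD (adjusted p = 0.287 and 0.0502). Cd22 (2.90 beside 2.98), Cd79b (1.76 beside 1.98) and Siglecg (2.00 beside 2.26) were nearer to each other. Tested directly, MaAAD against MaNonAD gave 51 DEGs (0.353% of tested genes), all higher in MaAAD and none among the 69, with 2694 genes (18.7%) at an unadjusted p under 0.05. By the same edgeR test that count was 355 without MaNonAD1 and 0 without MaNonAD2, MaNonAD3 or MaNonAD4, with 1640 to 2484 genes at the unadjusted p, and DESeq2 called 513 over all libraries, so no single gene of it is described. The 7 MaAAD libraries had 2.40 to 8.04 CPM of Arntl and 111.6 to 294.3 CPM of Dbp, beside 2.04 to 11.4 and 231.1 to 456.5 CPM in MaNonAD.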

How the data were processed

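Bulk thoracic aorta RNA was sequenced with a strand-specific protocol. The authors deposited 1 table of expected counts per gene (RSEM 1.3.1, Bowtie2 and GRCm39 are named in the submitters' processing notes), for 48 libraries, 1 per mouse. 4.99% of the deposited values were not whole, in 2247 of 18782 genes, where reads were divided between genes. Expected counts were rounded, and genes with low counts removed with edgeR's filter, which left 14431. The 14 libraries held 14193298 to 16314525 counts, and this depth limits genes averaging under 10 counts a library.

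All groups of the 48 libraries were fitted together in edgeR 4.0.16 (R 4.3.3) with TMM scaling and the robust quasi-likelihood test, and p-values were adjusted with Benjamini-Hochberg over all tested genes. Standard errors were derived from the fold change and the F statistic and are approximate. The p-values measure the spread between mice, estimated over all groups of the fit and not over the compared groups alone. According to the paper, each group was housed in several cages. The cage of each mouse is not given in the sources used here and was not a term of the fit. Mice that shared a cage were therefore counted as separate. A DEG had an adjusted p under 0.05 and a log2 change of 1 or more in size. The fit was also run on simulated data. These held no shifts of single libraries, such as those of MaNonAD1 and MaCon5, so they do not show how the fit handles them.

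Genes were named by a rule: the 15 largest rises and 10 largest falls among DEGs averaging at least 10 counts, list members that were such DEGs, for other lists the 2 members with the lowest p, the 3 largest sex differences each way, the lysyl oxidase genes and the clock genes. Marker genes of each cell type were added, and a few genes that the rule names are not reported here. The members and the 45 lists were chosen with earlier results of these data known. Alternatives were DESeq2 1.42.0, DESeq2 size factors, no filter, no robust estimation, the adjusted p alone, a replicate block, a fit of only the compared groups and leaving out each MaNonAD or MaCon library. For MaAAD against MaNonAD only MaNonAD libraries were left out, and no female or MaAAD library was left out anywhere. Clock and erythroid terms were added after seeing the data. Replicate numbers did not pair the samples: same-numbered MaNonAD and MaCon libraries had correlated deviations of 0.23, -0.02, -0.30 and -0.04. Promoters came from RefSeq on GRCm38.p6, another build than that of the counts, and were used for sequence only. Figures and tables were made with Python 3.11.15, pandas 2.3.3 and matplotlib 3.10.9.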

Additional observations from a re-analysis of the deposited data

Results flagged for a closer look

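A library far from the rest of its group, by its gap to the nearest neighbour set against the range of the group, was found 16 times in 114 groups of libraries checked. A chance rate of about 1 in 20 would hold only for independent checks. These were not independent, since clock genes move together and many genes were named for large changes. Of the 16, MaCon5 accounted for 10. Among MaCon, its clock genes stood apart with Dbp at 472 CPM, Tef at 540.0, Hlf at 82.3, Ciart at 49.0, Per1 at 239, Per2 at 213, Per3 at 173 and Bhlhe41 at 53.4 CPM on the high side and Clock at 22.5 CPM on the low side. Lox was also lowest there, at 151 CPM. Other single controls were MaCon3 for Col8a1 at 21.9 CPM and MaCon6 for the opioid-like receptor Oprl1 at 0.266 CPM. Among MaNonAD, MaNonAD1 stood above the others for Esm1 at 52.6 CPM and Col8a1 at 222 CPM, MaNonAD3 for Ccl8 at 11.8 CPM and MaNonAD4 for Hspa1b at 98.3 CPM.

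The difference between NonAD and control mice was unlike between the sexes, by the interaction term of the edgeR fit with its adjusted p, for 8 named genes. Hspa1b, Hspa1a, Dnajb4, Olfr920, Pabpc1l and Oprl1 were named for having the largest such differences, so their passing adds nothing. Clock state also set MaNonAD apart from most MaCon libraries. The male minus female difference in log2 fold change was -3.64 for Hspa1b, -3.09 for Hspa1a and -1.76 for Dnajb4, all chaperones, and -1.16 for the secreted kinase Pkdcc. It was 1.74 for Bhlhe40, 2.84 for the olfactory receptor Olfr920, 2.89 for Pabpc1l, of the poly(A)-binding proteins, and 4.2 for Oprl1. Ttc9, which was not named by the rule, passed the same test at 1.60. Olfr920, Pabpc1l and Oprl1 averaged under 10 counts a library in the males. Over all tested genes, 12 calls had a lower male than female change. These became 1, 3, 4 and 8 without MaNonAD1 to MaNonAD4, 6 with the erythroid covariate and 47 with clock covariates.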

How the results depend on the processing

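The male comparison had 69 DEGs, and 141 with only the compared groups in the fit, and 241 with clock covariates, a setting chosen after seeing the data. Leaving out 1 MaNonAD or MaCon library gave 15 to 86, with 15 without MaNonAD1, 36 without MaNonAD3 and 45 without MaCon8. The 79.7% of calls on the higher side became 90.8% with only the compared groups, 90.4% with the replicate block, 97.1% with clock covariates and 92.5% with the erythroid covariate, also chosen after seeing the data. DESeq2, its size factors, no filter, no robust estimation and the adjusted p alone gave 65 to 96. The sex difference had 43 DEGs, 94 in DESeq2, 111 with clock covariates and 26 with the erythroid covariate. Without 1 MaNonAD or MaCon library it had 12 to 89, with 12, 27, 24 and 28 without MaNonAD1 to MaNonAD4 and 89 without MaCon5. No female library was left out. MaAAD against MaNonAD had 51 DEGs, 513 in DESeq2, 168 with DESeq2 size factors, 99 without robust estimation, and 0 by edgeR without a filter, with the replicate block and with only the compared groups, where 2950, 2049 and 2442 genes had an unadjusted p under 0.05. Without 1 MaNonAD library it had 0 to 355. Replicate numbers do not pair the mice, and the replicate block gave 52 DEGs in the male comparison and 49 for the sex difference. Over 125 genes named by rule, 2535 values kept direction and side of the threshold, 145 no longer passed and 47 newly passed. Not counted are 16 clock genes with clock covariates and 2 erythroid genes with the erythroid covariate, since these terms are made from them (6 and 1 changed sign there), and 5 genes not tested with only the compared groups. Without MaNonAD1 24 of the named genes no longer passed. The cause of these changes was not tested. Depth limits genes averaging under 10 counts a library, the B cell genes Ms4a1, Cd22 and Pax5 among them.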

Other observations

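Of the 55 genes called higher in MaNonAD, 38 were in none of the lists, and 9 of them are given here, chosen after their values were seen. Adjusted p are from edgeR's quasi-likelihood test. Frzb, a secreted inhibitor of Wnt signalling, was at 229, 53.0, 109 and 65.8 CPM against 30.2 to 56.7 CPM in MaCon and rose by 1.37 (adjusted p = 0.00764). Tnfrsf11b, the decoy receptor osteoprotegerin, was at 127, 21.1, 45.6 and 29.9 CPM against 13.2 to 29.8 CPM in MaCon and rose by 1.54 (adjusted p = 0.0208). For both, MaNonAD1 was highest and MaNonAD2 lay within the controls. Sema3e, a secreted guidance factor for vessels and axons, was at 2.28, 3.06, 2.37 and 4.08 CPM against 0.336 to 1.79 CPM in MaCon. Its 4 treated libraries were close to each other and above the controls, and it rose by 1.41 (adjusted p = 0.00754).

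Others were of mixed function. Cd109, a coreceptor that restrains TGF-β signalling, was at 197, 107, 121 and 122 CPM against 44.6 to 84.2 CPM in MaCon and rose by 1.08 (adjusted p = 0.000218), without overlap, with 0.85 (adjusted p = 0.0298) without MaNonAD1. Ptk2b, a cytosolic tyrosine kinase related to focal adhesion kinase, was at 58.6, 33.6, 33.9 and 24.0 CPM against 11.6 to 21.9 CPM in MaCon, also apart from the controls, and rose by 1.21 (adjusted p = 0.000988). Gja4, the endothelial gap junction protein connexin 37, was at 67.8, 49.7, 57.1 and 32.3 CPM against 15.4 to 42.0 CPM in MaCon, with MaNonAD4 within the controls, and rose by 1.10 (adjusted p = 0.0155), or had 0.70 (adjusted p = 0.118) with the clock terms. Olfm2, of the olfactomedin family, was at 5.03, 6.88, 9.00 and 5.54 CPM against 2.14 to 3.93 CPM in MaCon and rose by 1.13 (adjusted p = 0.00289), and here MaNonAD1 was the lowest treated library. Of immune genes outside the lists, Cybb, the catalytic subunit of the phagocyte NADPH oxidase, rose by 1.34 (adjusted p = 0.047) and Cd180, a receptor of B cells and macrophages related to Toll-like receptors, rose by 1.75 (adjusted p = 0.03). Without MaNonAD1 the value was 0.94 for Gja4 (adjusted p = 0.272), 0.91 for Ptk2b (adjusted p = 0.109) and 1.26 for Cd180 (adjusted p = 0.604), while Frzb went to 0.78 (adjusted p = 0.635), Tnfrsf11b to 0.74 (adjusted p = 0.765) and Cybb to 0.78 (adjusted p = 0.755).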
